A study of Mus musculus with 18 samples.

Results

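Cohesin is the protein ring that holds sister chromatids together. Its subunits and regulators were followed here as 10 genes, taken by symbol from the 51912 genes of a count table: Smc1a, Smc3, Rad21, Stag1, Stag2, Wapl, Pds5a, Pds5b, Esco2 and Cdca5. All 10 passed the filter on low counts. RNA was sequenced from primary mouse embryo fibroblasts (MEFs), cultures of connective tissue cells from mid-gestation C57BL/6 embryos, at passage 1 in medium with 15% fetal bovine serum at 5% oxygen. The embryos were either Pole4+/+ or Pole4-/-, and in each of these backgrounds they were Trp53+/+, Trp53+/- or Trp53-/-, which gave 6 genotypes of 3 libraries and 18 libraries in all. Pole4 encodes an accessory subunit of the leading-strand DNA polymerase epsilon, and Trp53 encodes the p53 tumour suppressor. Both alleles were constitutive, and the embryos came from crosses of double heterozygotes. The labels do not say which libraries came from separate embryos or cultures, so p-values measure the spread between these libraries only.

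The ring is built from the paired ATPases SMC1A and SMC3, closed by the kleisin RAD21, to which either STAG1 or STAG2 binds. PDS5A and PDS5B sit on the ring and recruit WAPL, which opens it and releases cohesin from chromatin. During S phase the acetyltransferase ESCO2 modifies SMC3 behind the replication fork, and sororin, the product of Cdca5, then binds PDS5 and keeps WAPL away, so that the sister chromatids stay joined until mitosis. Transcripts of Esco2 and Cdca5 are known to peak with the cell cycle, whereas the ring is also needed outside S phase for chromatin loops and transcription.

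Library totals ran from 9535971 to 35319918 counts, and ribosomal RNA genes took 0.968% to 42.5% of them. Trp53 was at 8.65 to 12.1 CPM (counts scaled to the effective library size) in the Trp53-/- libraries and at 64.2 to 96.1 CPM in the Trp53+/+ libraries. Pole4 kept 9.26 to 12.0 CPM in the Pole4-/- libraries, below the 14.2 to 26.4 CPM of the Pole4+/+ libraries. All 10 fibroblast markers were above 1 CPM in every library and summed to at least 13717 CPM. Of the markers of other cell types, 8 of skeletal muscle summed to 44.6 to 203 CPM and 7 neuronal markers to 66.2 to 145 CPM, whereas 7 epithelial markers summed to at most 20.6 CPM, 8 macrophage markers summed to at most 51.1 CPM, 7 endothelial markers to at most 6.17 CPM and 7 erythroid markers to at most 0.728 CPM. Xist, read with the Y-linked Ddx3y, split the libraries into 11 with Xist at 375 to 880 CPM and 7 with Xist at no more than 2.97 CPM. All Pole4+/+ Trp53+/+ and Pole4+/+ Trp53-/- libraries were of the first kind, all Pole4+/+ Trp53+/- libraries were of the second, and the Pole4-/- genotypes were mixed. The library of Pole4+/+ Trp53-/- replicate 1 stood apart. It had the lowest level of its genotype for every cohesin gene but Stag2, and it held 2.76 CPM of Ddx3y beside 857 CPM of Xist, where the other Xist libraries held at most 0.181 CPM.

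Promoter sequence was at hand for 7 of the 10 genes, in a RefSeq table on mouse build GRCm38.p6, and did not include Rad21, Stag2 and Esco2. The 250 bases before the RefSeq start were searched on both strands for E2F-type words (TTCCCGC, or the variant TTGGCGC, or the variant TTCGCGC, or the variant TTGCCGC), for the cell cycle homology region or CHR word TTTGAA, and for CCAAT. Of 32851 mouse promoters, 7.89% held an E2F-type word, 16.0% held TTTGAA and 33.8% held CCAAT. The windows of 4 genes are shown 5′ to 3′ on the coding strand, because they set the S-phase regulator Cdca5 and the PDS5 paralogues beside a ring subunit. Capitals mark the words found on either strand.
Cdca5, chr19:6084847-6085096, plus strand: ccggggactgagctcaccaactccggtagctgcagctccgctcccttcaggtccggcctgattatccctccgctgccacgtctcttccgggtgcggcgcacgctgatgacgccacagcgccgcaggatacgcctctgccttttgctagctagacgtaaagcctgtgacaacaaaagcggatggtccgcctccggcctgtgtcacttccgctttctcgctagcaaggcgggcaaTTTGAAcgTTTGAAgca
Pds5b, chr5:150673577-150673826, plus strand: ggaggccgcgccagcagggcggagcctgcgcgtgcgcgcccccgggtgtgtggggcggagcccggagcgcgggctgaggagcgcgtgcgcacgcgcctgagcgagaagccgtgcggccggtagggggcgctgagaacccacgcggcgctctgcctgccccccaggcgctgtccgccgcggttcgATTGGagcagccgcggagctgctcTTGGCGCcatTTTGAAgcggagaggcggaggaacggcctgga
Pds5a, chr5:65698237-65698486, minus strand: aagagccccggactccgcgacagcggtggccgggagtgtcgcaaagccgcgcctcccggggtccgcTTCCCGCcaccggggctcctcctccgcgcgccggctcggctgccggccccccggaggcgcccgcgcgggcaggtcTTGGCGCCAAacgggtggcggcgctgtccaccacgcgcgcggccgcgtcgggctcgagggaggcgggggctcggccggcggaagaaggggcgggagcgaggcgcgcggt
Smc3, chr19:53600146-53600395, plus strand: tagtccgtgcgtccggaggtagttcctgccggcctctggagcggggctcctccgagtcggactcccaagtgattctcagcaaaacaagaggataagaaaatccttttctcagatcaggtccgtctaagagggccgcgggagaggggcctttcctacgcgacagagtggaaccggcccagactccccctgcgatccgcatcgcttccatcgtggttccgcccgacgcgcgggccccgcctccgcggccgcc
Cdca5 carried 2 copies of TTTGAA, at 17 to 12 and at 9 to 4 bases before the start, and neither an E2F-type word nor CCAAT. In Pds5b an E2F-type word at 42 to 36 bases was followed by TTTGAA at 32 to 27 bases, and CCAAT lay on the other strand. Pds5a held 3 E2F-type matches, of which 2 overlapped as a palindrome, and no TTTGAA. Smc3 held none of these words, Smc1a held CCAAT alone, Stag1 held 2 E2F-type words and CCAAT, and Wapl held CCAAT at 2 places. TTTGAA was thus found in the windows of Cdca5 and Pds5b and in no other of the 7. The RefSeq start lies inside the gene as GENCODE places it, by 114 bases in Cdca5, 88 in Pds5b, 37 in Pds5a and 45650 in Stag1, so that the TTTGAA words of Cdca5 and Pds5b fall within the annotated genes and the Stag1 window is far from the start of the longest gene model. These are matches of letters, and binding was not measured.

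The ring and STAG subunit genes lie on different chromosomes, apart from Smc1a and Stag2, which are both on the X: Smc1a (ENSMUSG00000041133) at chrX:152016428-152062694, Smc3 (ENSMUSG00000024974) at chr19:53600398-53645833, Rad21 (ENSMUSG00000022314) at chr15:51962240-51991747, Stag1 (ENSMUSG00000037286) at chr9:100597798-100959375 and Stag2 (ENSMUSG00000025862) at chrX:42149317-42277185. The genes that open or steady the ring are Wapl (ENSMUSG00000041408) at chr14:34673928-34747983, Pds5a (ENSMUSG00000029202) at chr5:65605721-65698273 and Pds5b (ENSMUSG00000034021) at chr5:150673739-150810690. Esco2 (ENSMUSG00000022034) lies at chr14:65819038-65833994 and Cdca5 (ENSMUSG00000024791) at chr19:6084983-6091777. Positions are of whole genes on GRCm38, in GENCODE's annotation, and expression was counted over their exons.

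Scaled per kilobase of transcript, the ring and its partners were expressed well above their S-phase regulators. Rad21 had the highest level, 46.0 CPM per kb on average over the genotypes, followed by Smc3 at 26.4 and Smc1a at 22.4. Stag2 was at 20.8 CPM per kb and its paralogue Stag1 at 12.9, and Pds5a at 19.2 and Pds5b at 12.3. Wapl was at 19.7 CPM per kb. Cdca5 and Esco2 were at 4.33 and 4.17 CPM per kb, below every other member in every genotype. The meiotic forms of the ring were all but absent: Smc1b, Stag3, Rec8 and Rad21l together summed to at most 2.01 CPM, and Stag3 was the only gene of these 4 that passed the filter on low counts.

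All 10 genes had their lowest mean in Pole4-/- Trp53+/+ cells and their highest in Pole4-/- Trp53-/- cells. The highest mean was 1.27 times the lowest for Stag2, 1.29 times for Wapl and 1.40 times for Pds5a. It was 1.63 to 1.79 times for Stag1, Smc1a, Smc3 and Pds5b, 2.13 times for Rad21, 2.93 times for Esco2 and 3.08 times for Cdca5. The genotypes between these ends were not well separated. For each of the 10 genes the libraries of Pole4-/- Trp53+/- and of the genotype next above it overlapped, as did those of Pole4+/+ Trp53+/+ and of the genotype next above it for every gene but Pds5b. A test for any difference among the 6 genotypes (edgeR's quasi-likelihood F-test with Benjamini-Hochberg adjustment over the 15710 genes tested) called 9 of the 10, all but Stag2 (adjusted p = 0.0703), where 28.5% of all genes were called. Leaving out 1 library moved this count between 8 and 10, through Wapl and Stag2.

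**Figure D1:**
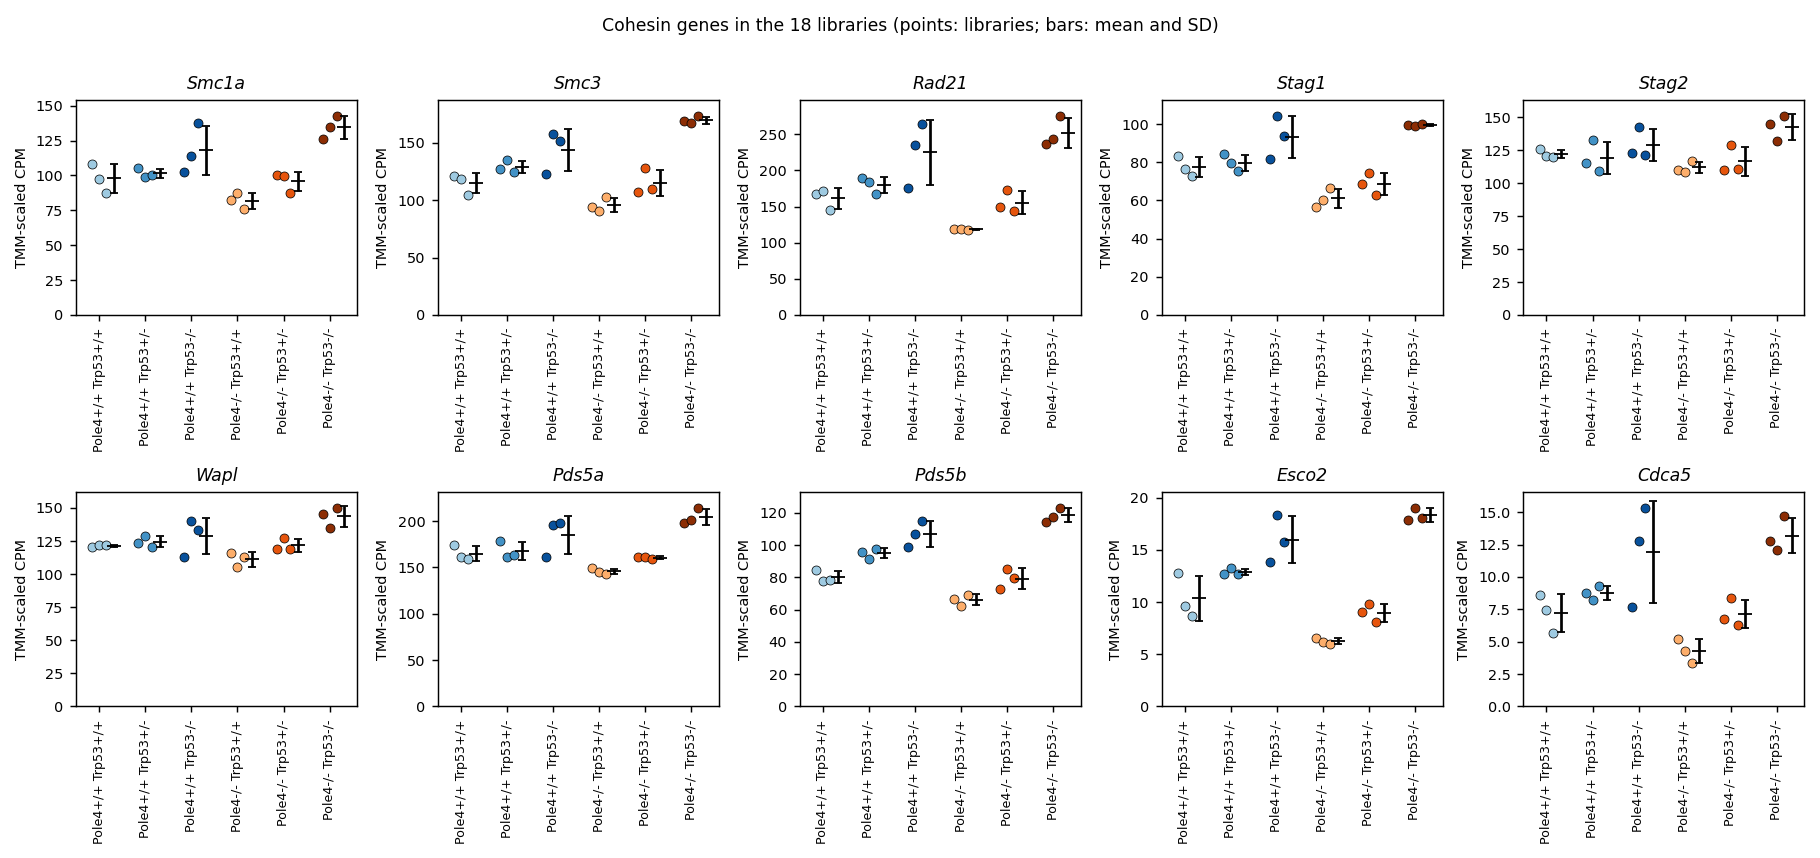
TMM-scaled CPM (linear axis from 0) of the 10 cohesin genes in the 18 libraries, by genotype, with each point a library and the bar beside it the mean and SD of 3. Every gene is lowest on average in Pole4-/- Trp53+/+ and highest in Pole4-/- Trp53-/-, from a 1.27-fold range in Stag2 to 3.08-fold in Cdca5.

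The comparison of Trp53-/- with Trp53+/+ in Pole4-/- cells asks what loss of p53 does where POLE4 is missing, and in it all 10 cohesin genes rose. In that comparison 21.8% of all genes tested were called higher and 42.6% were called in either direction, so a call by itself was common. The median log2 fold change of the 10 was 0.77, beside -0.02 for all genes. For all 10 the lowest Trp53-/- library lay above the highest Trp53+/+ library, which was so for 28.5% of all genes. In bulk RNA a larger share of cells that express a gene cannot be told apart from more RNA in each cell.

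Among the ring subunits Rad21, the kleisin cut at anaphase, rose the most. Its Pole4-/- Trp53+/+ libraries were at 119, 118 and 118 CPM, and its Pole4-/- Trp53-/- libraries at 237, 243 and 275 CPM. The log2 fold change was 1.09 ± 0.13 (SE, n = 3 and 3, edgeR adjusted p = 1.74e-05), and 6.61% of all genes had a larger one. Smc3, the subunit that ESCO2 acetylates, went from 94.4, 90.6 and 102 CPM to 169, 167 and 173 CPM, a log2 change of 0.82 ± 0.10 (edgeR adjusted p = 2.07e-05). Its ATPase partner Smc1a rose by a similar 0.71 ± 0.11 on the log2 scale, from a mean of 81.9 to 134 CPM.

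The STAG paralogues share a place on the ring. Stag1 libraries were at 56.6, 60.2 and 66.3 CPM in Pole4-/- Trp53+/+ and at 99.4, 98.8 and 99.9 CPM in Pole4-/- Trp53-/-, a log2 rise of 0.71 ± 0.09 (edgeR adjusted p = 5.02e-05). Stag2 went from 110, 109 and 117 CPM to 145, 132 and 151 CPM, a log2 rise of 0.35 ± 0.09 (edgeR adjusted p = 0.00723). The groups were apart in each gene, by less in Stag2.

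Of the release and maintenance factors, Wapl, which opens the ring, rose by 0.37 ± 0.08 on the log2 scale, from a mean of 111 to 144 CPM (edgeR adjusted p = 0.00189). Pds5a rose by 0.49 ± 0.08, from 149, 145 and 143 CPM to 198, 202 and 215 CPM. Pds5b rose by 0.84 ± 0.08 (edgeR adjusted p = 3.26e-06), from 66.5, 62.4 and 69.2 CPM to 115, 118 and 123 CPM. The log2 change of Pds5b was thus within the range of Smc1a, Smc3 and Rad21, and that of Stag2 was below those of Wapl and Pds5a. With library totals in place of TMM scaling, Stag2, Wapl and Pds5a lost the call and the other 7 kept it, beside 12% of all genes called higher. Leaving out any of the 18 libraries kept all 10.

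The S-phase regulators had the largest fold changes of the 10. Esco2 was at 6.59, 6.18 and 6.02 CPM in Pole4-/- Trp53+/+ and at 17.8, 19.1 and 18.1 CPM in Pole4-/- Trp53-/-, a log2 rise of 1.54 ± 0.14 (edgeR adjusted p = 3.09e-06). Cdca5 was at 5.24, 4.26 and 3.35 CPM and at 12.8, 12.1 and 14.7 CPM, a log2 rise of 1.59 ± 0.24 (edgeR adjusted p = 0.000114). Both groups were tight for Esco2 and wider for Cdca5, with no overlap in either gene. Of all genes, 3.18% had a larger log2 fold change than Esco2 and 2.95% a larger one than Cdca5, whereas 27.1% were above Stag2. Lists of 20 S-phase and 20 G2/M marker genes had median log2 fold changes of 1.61 and 1.62 in this comparison, so Esco2 and Cdca5 moved about as far as these markers.

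**Figure D2:**
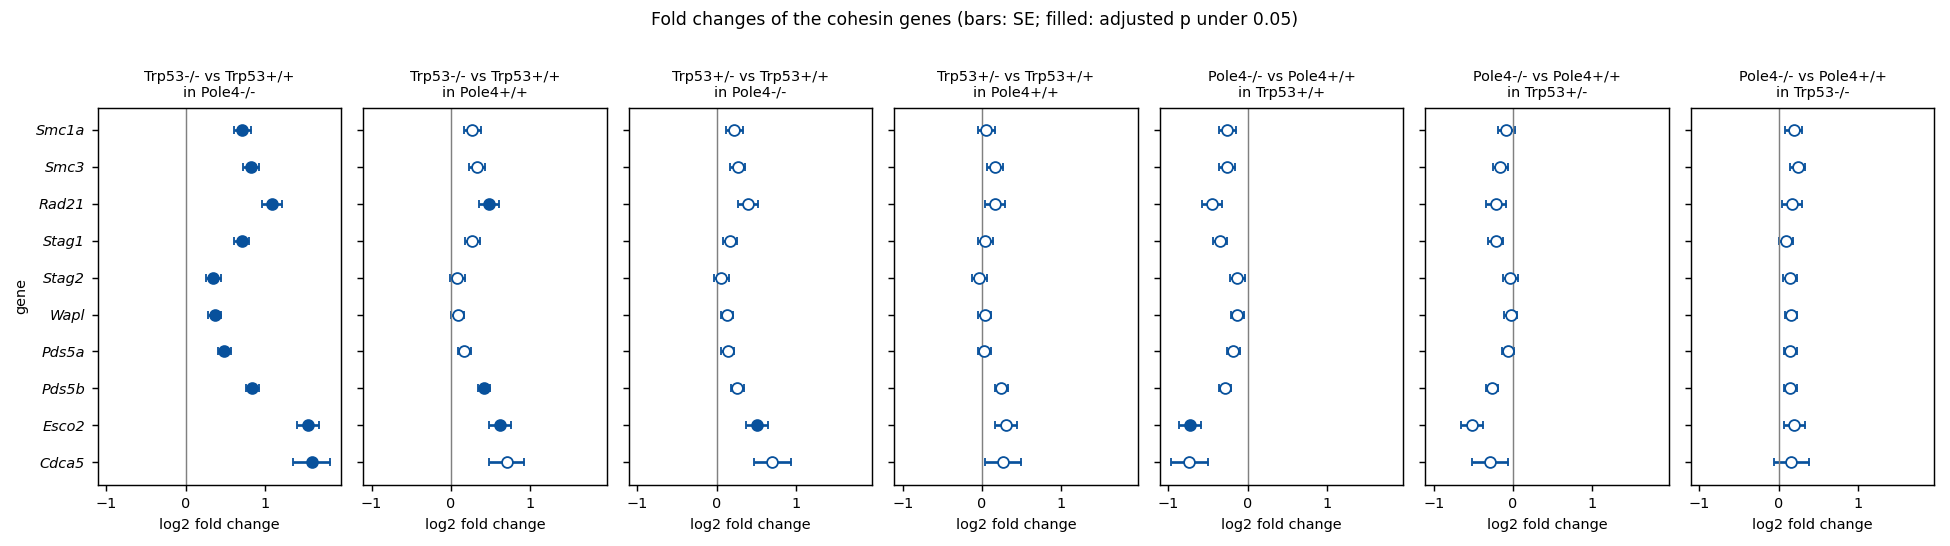
Log2 fold changes of the 10 cohesin genes in the 7 comparisons of genotypes, with SE bars and filled points where the edgeR adjusted p is under 0.05. All 10 points are filled and right of 0 for loss of Trp53 in Pole4-/- cells, led by Esco2 at 1.54 and Cdca5 at 1.59, and none is filled in either comparison of Pole4 genotypes with Trp53+/- or Trp53-/-.

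In Pole4+/+ cells the same loss of Trp53 called 3 cohesin genes, all higher: Rad21, Pds5b and Esco2, where 2.23% of all genes were called higher. The median log2 fold change was 0.30 over the 10 genes and 0.03 over all genes, and 4 members were higher without overlap of the libraries, beside 8.24% of all genes. Rad21 went from 168, 172 and 145 CPM to 175, 235 and 264 CPM, with a log2 change of 0.48 ± 0.12 (edgeR adjusted p = 0.0401). Pds5b, at 84.7, 77.9 and 78.3 CPM in Pole4+/+ Trp53+/+ and 98.8, 107 and 115 CPM in Pole4+/+ Trp53-/-, rose by 0.41 ± 0.08 (edgeR adjusted p = 0.00644). Esco2 went from 12.8, 9.67 and 8.66 CPM to 13.8, 18.4 and 15.8 CPM, a log2 rise of 0.62 ± 0.14 (edgeR adjusted p = 0.0154). Cdca5 had a larger log2 change of 0.70 ± 0.22 that did not pass (edgeR adjusted p = 0.0853): its libraries, at 8.62, 7.44 and 5.70 CPM and at 7.67, 12.8 and 15.4 CPM, overlapped. Stag2 and Wapl changed least, with log2 values of 0.08 and 0.08 and 95% intervals of -0.13 to 0.28 and -0.09 to 0.26. Smc1a, Smc3, Stag1 and Pds5a lay between, at 0.17 to 0.33, without passing. Of the cell cycle markers, 4 of 20 S-phase and 7 of 20 G2/M markers were called higher, with median log2 fold changes of 0.59 and 0.56. The skeletal muscle markers summed to 114 to 153 CPM in Pole4+/+ Trp53+/+ and to 44.6 to 50.9 CPM in Pole4+/+ Trp53-/-, with 2 of the 6 tested called lower, although their median log2 fold change was above 0. Without Pole4+/+ Trp53-/- replicate 1, 19 and 19 of the cell cycle markers were called, and without Pole4+/+ Trp53+/+ replicate 3, 0 and 1 were. The part of these markers in the result was not tested.

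These counts rested on few libraries. Without Pole4+/+ Trp53-/- replicate 1, 8 genes were called, all but Stag2 and Wapl, beside 8.58% of all genes called higher. Without Pole4+/+ Trp53+/+ replicate 2 or 3 or Pole4+/+ Trp53-/- replicate 2, only Pds5b was called, and without Pole4+/+ Trp53+/+ replicate 1 or Pole4+/+ Trp53-/- replicate 3, Esco2 and Pds5b were called, where 0.654% to 1.78% of all genes were called higher. Leaving out a library of another genotype, which still enters the shared fit, gave 2 or 3 calls, always with Esco2 and Pds5b. Over all 18 libraries left out in turn, Pds5b was called in 18 fits, Esco2 in 15 and Rad21 in 6. With only the 6 libraries compared in the fit, or with library totals in place of TMM scaling, no member was called, whereas DESeq2 called 5 and limma-voom with quality weights called 7, beside 4.37% and 11.1% of all genes called higher.

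Whether loss of Trp53 raised the cohesin genes further in Pole4-/- than in Pole4+/+ cells was tested as an interaction, and no member passed (edgeR adjusted p from 0.0502 for Esco2 to 0.186 for Stag2), where 0.331% of all genes did. The difference of the log2 fold changes was above 0 for all 10, from 0.27 ± 0.13 for Stag2 to 0.92 ± 0.20 for Esco2, and 9 of the 10 had an unadjusted p under 0.05, as did 28.3% of all genes. DESeq2 called 7 and limma-voom 6, with Esco2, Rad21, Smc3, Pds5b and Smc1a among those of each, beside 11.4% and 7.59% of all genes. Leaving out Pole4+/+ Trp53-/- replicate 1, 2 or 3 gave 1, 5 and 8 calls, beside 1.07%, 12.3% and 20.1% of all genes. Leaving out Pole4+/+ Trp53+/+ replicate 3 gave 2 calls beside 2.52% of all genes. Esco2 alone was called without Pole4-/- Trp53+/- replicate 2 or 3, beside 1.43% and 0.879% of all genes, and leaving out any of the other 12 libraries gave 0 calls.

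With a single Trp53 allele left, the members of Pole4-/- cells stood between those with both and with none. Compared with Pole4-/- Trp53+/+, the libraries of Pole4-/- Trp53+/- did not overlap and were higher for 8 of the 10 genes, all but Stag1 and Stag2, where 21.4% of all genes were higher without overlap. Esco2 alone was called, at 9.05, 9.82 and 8.07 CPM and a log2 rise of 0.51 ± 0.14 (edgeR adjusted p = 0.0492), beside 2.96% of all genes called higher. That call was lost without any of the 3 Pole4-/- Trp53+/+ libraries, without Pole4-/- Trp53+/- replicate 1 or 2, or with log2 Xist in the model, and it held in 6 of 18 fits that left out 1 library. Without Pole4+/+ Trp53-/- replicate 1 or 3, libraries outside this comparison, 5 and 4 members were called, beside 12.5% and 6.1% of all genes called higher. The log2 value stayed at 0.45 to 0.59 without any 1 library. Cdca5 was at 6.74, 8.37 and 6.33 CPM, with a log2 value of 0.70 ± 0.23 that did not pass (edgeR adjusted p = 0.0848). Of the cell cycle markers, 10 of 20 for S phase and 11 of 20 for G2/M were called higher, with median log2 fold changes of 0.74 and 0.67, and the S-phase sum was 780 to 1084 CPM beside 537 to 560 CPM. Without Pole4-/- Trp53+/- replicate 2 or Pole4-/- Trp53+/+ replicate 3 no marker of either list was called, and with log2 Xist 2 of each list were. Their part in the result was not tested.

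In Pole4+/+ cells the same comparison called none of the 10, where edgeR called 0.904% of all genes, and 2 members, Pds5b and Esco2, had an unadjusted p under 0.05, as did 10.2% of all genes. Libraries did not overlap and were higher for 2 members and again 10.2% of all genes. DESeq2 called none and limma-voom called Pds5b, beside 2.57% and 7.13% of all genes. Pds5b libraries were at 95.7, 91.6 and 97.8 CPM, all above the 84.7 CPM of the highest Pole4+/+ Trp53+/+ library, with a log2 difference of 0.24 ± 0.08. The Xist and Ddx3y levels split these genotypes completely, so that sex and Trp53 dose cannot be told apart here. This bears on Smc1a and Stag2, which are X-linked and differed by 0.05 ± 0.11 and -0.04 ± 0.09 on the log2 scale. Sex was unbalanced to a lesser degree in each comparison of Pole4 genotypes, where the Pole4+/+ libraries were of a single kind and the Pole4-/- libraries were mixed.

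Loss of Pole4 in Trp53+/+ cells went the other way. Every Pole4-/- Trp53+/+ library was below every Pole4+/+ Trp53+/+ library for all 10 genes, where 21.7% of all genes were lower without overlap. The median log2 fold change was -0.27 over the 10 and 0.01 over all genes. Esco2 was the only member called (2.7% of all genes were called lower): it fell by 0.73 ± 0.14 on the log2 scale, to 6.02 to 6.59 CPM from 8.66 to 12.8 CPM (edgeR adjusted p = 0.0203). Cdca5 had a log2 value of -0.73 ± 0.23 (edgeR adjusted p = 0.0799), Rad21 of -0.45 ± 0.13, Stag1 of -0.35 ± 0.09 and Pds5b of -0.28 ± 0.08, with adjusted p from 0.0506 to 0.0552 for the last 3. Stag2 and Wapl had the smallest values, -0.13 ± 0.09 and -0.13 ± 0.08. The Esco2 call was lost without Pole4+/+ Trp53+/+ replicate 1 or 2, without Pole4-/- Trp53+/+ replicate 2 or 3, or with log2 Xist in the model. Its log2 value ran from -0.84 to -0.55 without 1 library and was -0.73 with log2 Xist (edgeR adjusted p = 0.117). Without Pole4+/+ Trp53+/+ replicate 3, Rad21 and Stag1 were called as well as Esco2, where 3.7% of all genes were called lower. Over all 18 libraries left out in turn, Esco2 was called in 14 fits, Stag1 in 9, and Rad21 and Pds5b in 4 each. Leaving out Pole4+/+ Trp53-/- replicate 1 or 3, which are not part of this comparison, gave 7 and 5 calls, beside 12.3% and 5.45% of all genes called lower. DESeq2 called 5 members and limma-voom 8, all lower, beside 6.53% and 17.4% of all genes called lower. Cell cycle transcripts were lower too: 13 of 20 S-phase markers and 18 of 20 G2/M markers were called lower, with median log2 fold changes of -0.88 and -0.82. These calls were lost as that of Esco2 was: 0 S-phase and 1 G2/M marker were called without Pole4+/+ Trp53+/+ replicate 1 or 2 or Pole4-/- Trp53+/+ replicate 2 or 3, 2 and 3 without Pole4-/- Trp53+/+ replicate 1, and 0 and 0 with log2 Xist. The S-phase markers summed to 800 to 1115 CPM in Pole4+/+ Trp53+/+ and to 537 to 560 CPM in Pole4-/- Trp53+/+, and the G2/M markers to 1418 to 1870 CPM and to 975 to 1011 CPM. The fibroblast markers summed to 16328 to 22003 CPM and to 24894 to 30956 CPM, without overlap, with 1 of 10 called higher and a median log2 fold change of 0.36. The part of these markers in the result was not tested.

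Where Trp53 was heterozygous or gone, loss of Pole4 called no member. With Trp53+/-, edgeR called 0.00637% of all genes and 3 members, Stag1, Pds5b and Esco2, had an unadjusted p under 0.05, as did 5.51% of all genes. Libraries did not overlap and were lower for 3 members and 6.83% of all genes. DESeq2 called none, and limma-voom called Esco2 and Pds5b, beside 0.274% and 1.58% of all genes. Esco2 was at 8.07 to 9.82 CPM in Pole4-/- Trp53+/- and at 12.7 to 13.2 CPM in Pole4+/+ Trp53+/-, without overlap, a log2 difference of -0.52 ± 0.14 (edgeR adjusted p = 0.422). With Trp53-/-, edgeR again called 0.00637% of all genes, Smc3 alone had an unadjusted p under 0.05 (10.4% of all genes did) and was alone in having libraries higher without overlap (4.32% of all genes), and DESeq2 and limma-voom called no member. The 10 log2 values ran from 0.09 to 0.24, and the 95% interval was -0.10 to 0.49 for Esco2 and -0.11 to 0.44 for Rad21. With library totals in place of TMM scaling all 10 values were below 0, from -0.17 to -0.31, where the median of all genes was -0.44. Ribosomal RNA genes took 24.7% to 30.0% of counts in Pole4-/- Trp53-/- libraries and 1.82% to 13.1% in Pole4+/+ Trp53-/- libraries, without overlap. Their part in this change of sign was not tested.

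The balance between paralogues was compared within each library, where scaling cancels. The log2 ratio of Stag2 to Stag1 was 0.96, 0.86 and 0.82 in Pole4-/- Trp53+/+ and 0.55, 0.42 and 0.60 in Pole4-/- Trp53-/-, a difference of -0.36. In Pole4+/+ cells it was 0.60, 0.66 and 0.72 with Trp53 and 0.59, 0.46 and 0.38 without it, a difference of -0.19. In both backgrounds every Trp53-/- library was thus below every Trp53+/+ library, narrowly so in Pole4+/+. The ratio was also higher in Pole4-/- than in Pole4+/+ libraries with Trp53+/+, by 0.22, and in Pole4-/- cells Trp53+/- differed from Trp53+/+ by -0.11 without overlap. Each of these 4 differences had an exact two-sided permutation p of 0.1, the smallest that 3 against 3 allows, and 0.263 after Benjamini-Hochberg adjustment over 21 tests of 3 ratios in 7 comparisons, so the test could not pass.

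For the PDS5 paralogues the log2 ratio of Pds5b to Pds5a was -1.16, -1.21 and -1.05 in Pole4-/- Trp53+/+ and -0.79, -0.78 and -0.80 in Pole4-/- Trp53-/-, a difference of 0.35. It was 0.25 higher in Pole4+/+ Trp53-/- and 0.22 higher in Pole4+/+ Trp53+/- than in Pole4+/+ Trp53+/+, each without overlap, and Pole4-/- Trp53+/- differed from Pole4+/+ Trp53+/- by -0.20, also without overlap (exact permutation p = 0.1, adjusted 0.263). Smc1a and Smc3, which pair in a fixed ratio in the ring, gave log2 ratios that overlapped in every comparison, with group means from -0.34 to -0.23. For the ratio of Stag2 to Stag1, and of Pds5b to Pds5a, leaving out any of the libraries compared kept the sign of the differences named here.

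Esco2 and Cdca5 were then set against the other 8 members as the difference of their mean log2 CPM. It was -3.99, -4.16 and -4.41 in Pole4-/- Trp53+/+, -3.76, -3.69 and -3.86 in Pole4-/- Trp53+/-, and -3.29, -3.28 and -3.28 in Pole4-/- Trp53-/-. The S-phase regulators were thus nearest to the constitutive members where Trp53 was gone, 0.91 closer on the log2 scale than with both alleles. In Pole4+/+ cells the means were -3.71 ± 0.21, -3.49 ± 0.07 and -3.32 ± 0.17 (SD, n = 3 each) with Trp53+/+, Trp53+/- and Trp53-/-, and the libraries of the first and last overlapped. Pole4-/- Trp53+/+ libraries were below all Pole4+/+ Trp53+/+ libraries, by 0.47 on average. No test was made of this score, since it sums over the chosen genes.

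**Figure D3:**
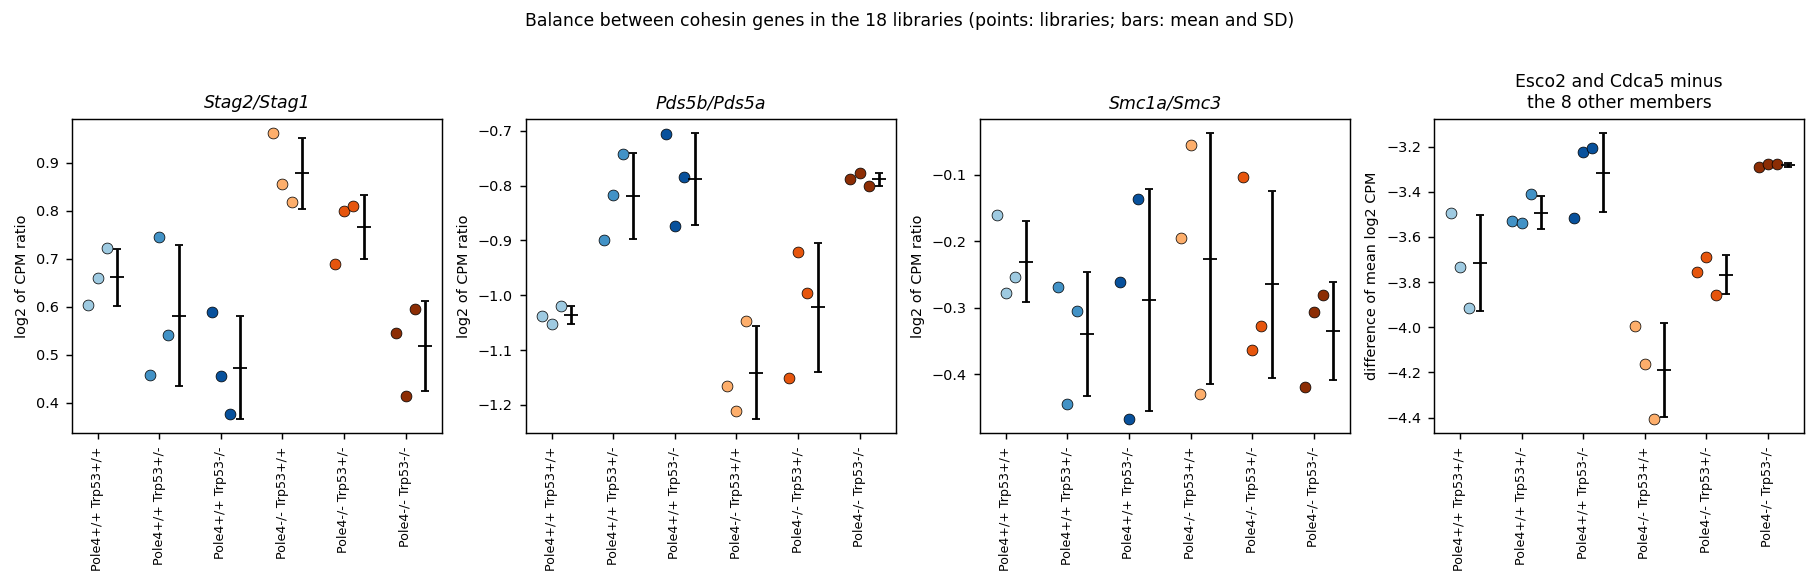
Log2 CPM ratios of 3 pairs of cohesin genes, and the difference of mean log2 CPM between Esco2 with Cdca5 and the other 8 members, in the 18 libraries by genotype, with the mean and SD of 3. Stag2 to Stag1 is highest and Pds5b to Pds5a lowest in Pole4-/- Trp53+/+, Smc1a to Smc3 overlaps throughout, and the regulators move from -4.19 below the other members in Pole4-/- Trp53+/+ to -3.28 in Pole4-/- Trp53-/-.

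Cell cycle transcripts moved with the cohesin genes. The 20 S-phase markers summed to 537 to 560 CPM in Pole4-/- Trp53+/+ and to 1536 to 1898 CPM in Pole4-/- Trp53-/-, and 20 of 20 were called higher in that comparison. The 20 G2/M markers summed to 975 to 1011 and to 2697 to 3358 CPM, with 19 of 20 called higher. In Pole4+/+ Trp53-/- replicate 1 the S-phase markers summed to 914 CPM beside 1596 and 1886 CPM in replicates 2 and 3. Over the 18 libraries, which share the genotypes, the log2 CPM of each member was correlated with the mean log2 CPM of the S-phase markers. The Pearson r was 0.99 for Rad21, 0.97 for Cdca5, 0.95 for Smc3, 0.95 for Pds5a, 0.94 for Smc1a and 0.94 for Stag1. It was 0.93 for Esco2, 0.93 for Pds5b, 0.90 for Wapl and 0.76 for Stag2, the lowest of the 10. With the G2/M markers r was 0.99 for Rad21, 0.95 for Esco2, 0.97 for Cdca5 and 0.76 for Stag2. The part of cell cycle distribution in the cohesin changes was not tested. The fibroblast markers summed to 24894 to 30956 CPM in Pole4-/- Trp53+/+ and to 13717 to 16519 CPM in Pole4-/- Trp53-/-, with 5 of 10 called lower, 1 called higher and a median log2 fold change of -0.75, where 20.8% of all genes were called lower. Of the other marker lists, the skeletal muscle markers summed to 142 to 151 CPM in Pole4-/- Trp53+/+ and 53.5 to 68.5 CPM in Pole4-/- Trp53-/-, the neuronal markers to 76.8 to 96.4 and 123 to 145 CPM, and the epithelial markers to 2.13 to 2.68 and 4.40 to 20.6 CPM. Of those tested, 2 of 6 muscle markers were called lower, and 2 of 3 neuronal and 2 of 2 epithelial markers higher, beside 21.8% of all genes called higher. None of the 8 macrophage or 3 endothelial markers tested was called. Their part in the result was not tested.

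**Figure D4:**
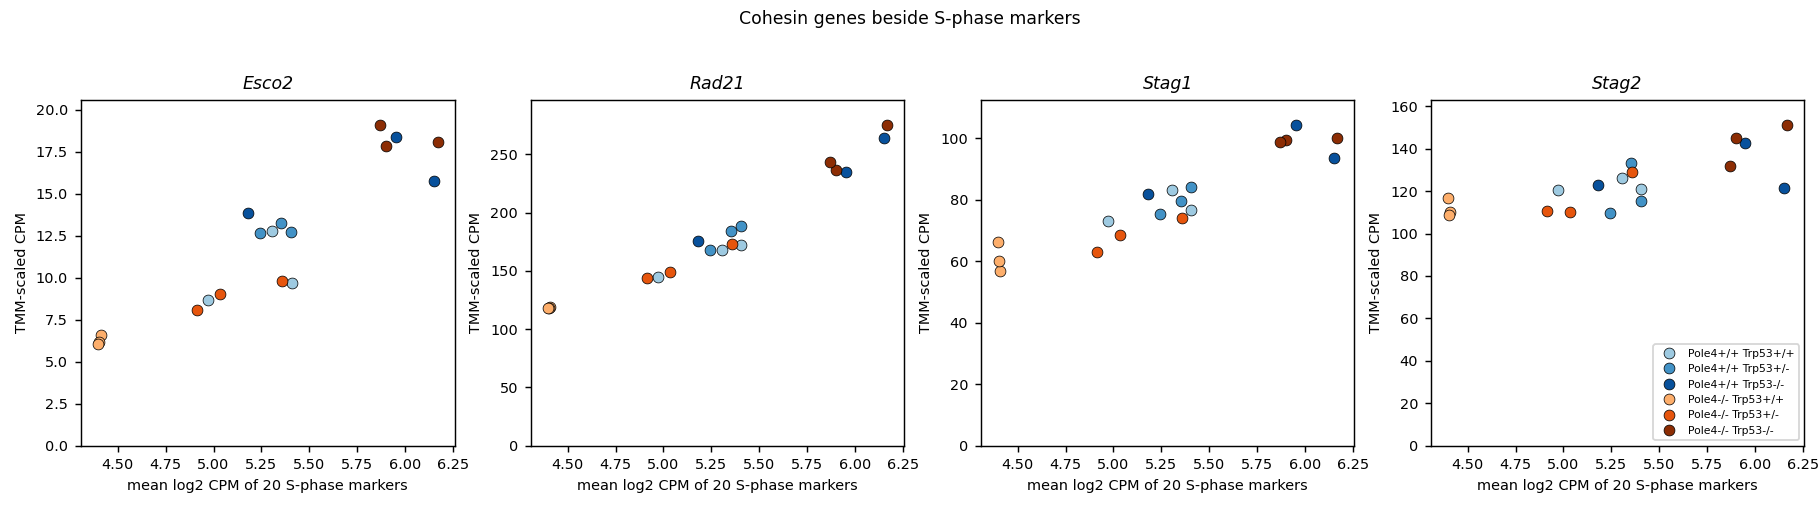
TMM-scaled CPM of Esco2, Rad21, Stag1 and Stag2 (linear axis from 0) against the mean log2 CPM of 20 S-phase markers, with each point a library coloured by genotype. Rad21 is ordered closely with the markers (r = 0.99 on log2 CPM over 18 libraries), while Stag2 scatters over a narrow range (r = 0.76).

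Other genes of the cohesin pathway were read as lists, against the 21.8% of all genes called higher for loss of Trp53 in Pole4-/- cells. There, 14 of 14 genes of fork-coupled cohesion establishment were called higher, from Chtf8 at 0.31 ± 0.09 to Rfc5, a subunit of the clamp loader, at 1.65 ± 0.18 on the log2 scale. Of 7 genes of cohesin removal and protection in mitosis 6 were called higher, led by Sgo1, the shugoshin that guards centromeric cohesin, at 1.99 ± 0.20, while Pttg1, which encodes securin, was at -0.37 ± 0.15 without passing (edgeR adjusted p = 0.0549). The loader and other constitutive regulators were split. Nipbl, the loader, rose by 0.29 ± 0.07 and Ctcf, which positions cohesin on chromatin, by 0.62 ± 0.11. Mau2, which partners NIPBL, fell by 0.29 ± 0.09 and Hdac8, the SMC3 deacetylase, fell by 0.51 ± 0.18 (edgeR adjusted p = 0.0214 and 0.0287). Esco1, the acetyltransferase that acts outside S phase, was at -0.04 ± 0.09 (edgeR adjusted p = 0.841). Of the 6 genes of SMC5/6, a related complex in DNA repair, 5 were called higher. The median log2 fold changes of the fork-coupled, removal and SMC5/6 lists were 1.42, 1.68 and 0.60, beside the 0.77 of the members.

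The other comparisons called fewer of these genes. Loss of Trp53 in Pole4+/+ cells called 4 of 14 fork-coupled genes and 1 of 7 removal genes, Aurkb, higher, and none of the loader or SMC5/6 genes, beside 2.23% of all genes. Trp53+/- against Trp53+/+ in Pole4-/- cells called 5 of 14 and 4 of 7 higher, beside 2.96% of all genes. These counts were 0 and 0 without Pole4-/- Trp53+/+ replicate 2 or 3 or Pole4-/- Trp53+/- replicate 2, 3 and 1 without Pole4-/- Trp53+/+ replicate 1, and 1 and 1 with log2 Xist in the model. Loss of Pole4 in Trp53+/+ cells called 6 of 14 and 5 of 7 lower, among them Sgo1 at -1.03 ± 0.19, beside 2.7% of all genes. Here none of the 14 or the 7 was called without Pole4+/+ Trp53+/+ replicate 1 or 2, without Pole4-/- Trp53+/+ replicate 2 or 3, or with log2 Xist in the model, and 4 and 1 were called without Pole4-/- Trp53+/+ replicate 1. No loader or SMC5/6 gene was called in that last comparison. Without Pole4+/+ Trp53-/- replicate 1, the library that stood apart, the calls numbered 13 and 6 for loss of Trp53 in Pole4+/+ cells, 12 and 5 for Trp53+/- in Pole4-/- cells and 13 and 6 for loss of Pole4, where 8.58%, 12.5% and 12.3% of all genes were called in the same direction. With only the libraries compared, loss of Trp53 in Pole4+/+ cells called none of the 14 or the 7.

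The genes most like 4 of the members over the 18 libraries were found by Pearson correlation of log2 CPM, as a description. For Esco2 these were Fignl1 (r = 0.98), Bub1, Kif11, Top2a and Ncapg, of which Bub1, Kif11 and Top2a are also G2/M markers used here. For Cdca5 they were Nsd2 (r = 0.98), Nek2, Melk, Prim2 and Dck. Smc3 lay closest to Smc4 (r = 0.99), a condensin subunit, and to Xpo1, Casp8ap2, Ezh2 and Eri1. Smc1a lay closest to Ckap5 (r = 0.98), Prc1, Anln, Kif4 and Anapc1. Among the 10 members the closest pair was Smc3 and Rad21 (r = 0.97) and the least alike were Stag2 and Cdca5 (r = 0.68).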

How the data were processed

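RNA-seq was read from 18 MEF libraries of 6 genotypes. The authors aligned reads to GRCm38 with Ensembl 89 genes, and the processing notes in the labels name STAR 2.5.2, RSEM 1.3.0 and DESeq2 1.10.1. The deposited values are RSEM expected counts per gene, which were rounded to whole numbers here. Symbols and positions came from GENCODE M21. After edgeR's filterByExpr, 15710 genes were fitted with edgeR 4.0.16 (R 4.3.3) by the robust quasi-likelihood F-test, with TMM scaling, a mean per genotype over all 18 libraries and Benjamini-Hochberg adjustment at 0.05. Levels are TMM-scaled CPM, log2 CPM uses a prior count of 2, and levels per kb use the longest principal transcript. The count of reads per gene sets the precision: members had 25 to 7122 counts in a library. Intervals of log2 fold changes use 12 residual degrees of freedom. Ratios were compared by exact two-sided permutation tests (scipy 1.17.1). The fit was tested on simulated data.

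Alternatives were DESeq2 1.42.0, limma 3.58.1 voom with quality weights, other scalings and filters, log2 Xist, a replicate block and leaving out each library. Same-numbered libraries deviated together in Pole4-/- against Pole4+/+ with Trp53+/- (r = 0.26, 0.50 and 0.29) with every pair over 0.1, which held in no other comparison, although all 3 pairs were above 0 in 3 others. This pairing rests on the data, since the labels do not say what a number marks. All 10 members are named, with the lowest and highest log2 fold change of each cohesin pathway list, the 5 genes with the highest correlation to Esco2, Cdca5, Smc3 or Smc1a, Trp53, Pole4 and Xist as checks of the labels, and the genes of that rule's promoter search. Nipbl, Mau2, Esco1, Aurkb and the 4 promoters printed were picked after their values were seen. A gene of the loader list is not reported here. The members and gene lists were chosen with earlier results of these data known.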

Additional observations from a re-analysis of the deposited data

Results flagged for a closer look

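Sgo1, which guards centromeric cohesin, was the gene of the cohesin pathway lists outside the 10 members that passed the test of a different response to loss of Trp53 between Pole4 genotypes, narrowly. Trp53-/- libraries exceeded Trp53+/+ libraries by 1.99 on the log2 scale where Pole4 was deleted and by 0.62 where it was present, a difference of 1.37 (edgeR interaction test, adjusted p = 0.0486, beside 0.331% of all genes called). Over 29 alternatives the difference ran from 1.21 to 1.55 and was called in 14, with the adjusted p at up to 0.171. The call was lost with library totals, only the libraries compared, log2 Xist, a threshold of 0.01, or without 1 of several libraries, among them each Pole4-/- Trp53+/+ and each Pole4-/- Trp53-/- library.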

How the results depend on the processing

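The 10 calls for loss of Trp53 in Pole4-/- cells numbered 7 with library totals and stayed at 10 to 10 without any 1 of the 18 libraries. Other counts of members called moved more, and the causes were not tested. For loss of Trp53 in Pole4+/+ cells, 3 were called, against 5 with DESeq2, 7 with voom, 0 with library totals, 0 with only the libraries compared, 1 at an adjusted p under 0.01, and 1 to 8 without 1 library. Of all genes, 2.23% were called higher there as reported, 4.37% with DESeq2, 11.1% with voom and 0.586% with library totals. The share was 0.158% with only the libraries compared and 0.605% at an adjusted p under 0.01. For Trp53+/- in Pole4-/- cells, 1 was called, against 4 with DESeq2, 6 with library totals, 5 with voom, 3 with only the libraries compared, 2 without ribosomal RNA genes, 2 with no low-count filter, 0 with log2 Xist, 0 at an adjusted p under 0.01, and 0 to 5 without 1 library. Of all genes, 2.96% were called higher there as reported, 6.75% with DESeq2, 13.4% with library totals, 12.7% with voom and 10.7% with only the libraries compared. The share was 4.51% without ribosomal RNA genes, 2.45% with no low-count filter, 0.522% with log2 Xist and 0.115% at an adjusted p under 0.01. For Trp53+/- in Pole4+/+ cells voom called 1, and leaving out 1 library gave 0 to 0. For loss of Pole4 with Trp53+/+, 1 was called, against 5 with DESeq2, 6 with library totals, 8 with voom, 6 with only the libraries compared, 4 without ribosomal RNA genes, 4 with no low-count filter, 2 with upper-quartile scaling, 2 with a mean of at least 50 counts, 0 with log2 Xist, 0 at an adjusted p under 0.01, and 0 to 7 without 1 library. Of all genes, 2.7% were called lower there as reported, 6.53% with DESeq2, 13.9% with library totals, 17.4% with voom and 13.2% with only the libraries compared. The share was 3.6% without ribosomal RNA genes, 2.4% with no low-count filter, 2.66% with upper-quartile scaling and 4.2% with a mean of at least 50 counts. It was 0.0318% with log2 Xist and 0.0382% at an adjusted p under 0.01. For loss of Pole4 with Trp53+/- voom called 2. For the interaction, 0 were called, against 7 with DESeq2, 6 with voom, 2 with a mean of at least 50 counts, 1 with upper-quartile scaling, 1 without ribosomal RNA genes, 1 with no low-count filter, and 0 to 8 without 1 library. Of all genes, 0.331% were called there as reported, 11.4% with DESeq2, 7.59% with voom and 4.23% with a mean of at least 50 counts. The share was 1.96% with upper-quartile scaling, 2.11% without ribosomal RNA genes and 1.14% with no low-count filter.

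With the replicate block, 3 members were called for loss of Pole4 with Trp53+/+ and 2 for the interaction, beside 3.32% of all genes called lower and 3.49% called, where the numbers are not shown to pair the libraries. For Pole4 with Trp53+/- the block left 0 members called, and it changed no other count of members by over 1.5 times. With library totals, loss of Pole4 with Trp53-/- turned below 0: Smc1a -0.23, Smc3 -0.17, Rad21 -0.24, Stag1 -0.31, Stag2 -0.26, Wapl -0.25, Pds5a -0.26, Pds5b -0.27, Esco2 -0.21 and Cdca5 -0.24. The median of all genes was -0.44 there, and it was -0.28 for Pole4 with Trp53+/+ and 0.29 for Trp53+/- in Pole4-/- cells. In these 2 comparisons library totals gave 57 genes higher and 2187 lower in place of 202 and 424, and 2098 and 65 in place of 465 and 340. For Pole4 with Trp53-/- voom gave Stag1 -0.0111. For Trp53+/- in Pole4+/+ cells log2 Xist gave Stag1 -0.0372 and Stag2 0.0415.

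Among members that were not called, leaving out 1 library turned the sign of Stag2 for Trp53-/- in Pole4+/+ (-0.00652 to 0.11), for Trp53+/- in Pole4-/- (-0.0166 to 0.11) and for Pole4 with Trp53+/- (-0.11 to 0.0529). For Trp53+/- in Pole4+/+ it turned Smc1a (-0.0195 to 0.13), Stag1 (-0.00316 to 0.0911), Stag2 (-0.12 to 0.00943) and Pds5a (-0.0156 to 0.0650), and for Pole4 with Trp53-/- it turned Cdca5 (-0.0812 to 0.36). The ratio of Stag2 to Stag1 ran from -0.00357 to 0.10 and that of Pds5b to Pds5a from -0.0430 to 0.0405 for Pole4 with Trp53-/-. The ratio of Smc1a to Smc3 ran from -0.13 to 0.0317 for Trp53-/- in Pole4+/+, -0.14 to 0.0473 for Trp53+/- in Pole4-/-, -0.0813 to 0.11 for Pole4 with Trp53+/+, -0.00530 to 0.12 with Trp53+/- and -0.14 to 0.0289 with Trp53-/-.

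Over all genes, the number called ranged with the setting or the library left out from 3722 to 8169 for Trp53-/- in Pole4-/- (6699 as reported), 90 to 2977 in Pole4+/+ (723), 17 to 3865 for Trp53+/- in Pole4-/- (805), 17 to 1120 in Pole4+/+ (142), 8 to 5259 for Pole4 with Trp53+/+ (626), 0 to 248 with Trp53+/- (1), 0 to 29 with Trp53-/- (1), 0 to 3242 for the interaction (52) and 2163 to 9131 for any difference (4480). Cdca5, at as few as 25 counts in a library, had the widest errors of the 10. The comparison of protein identity between paralogues was not run.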
